A study of Homo sapiens with 3 samples.

Results

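Strawberry Notch 1 (SBNO1) was mapped on the chromatin of HuCCT1 cells, an established line from a cancer of the bile ducts, and the regions described here are the places away from promoters where its ChIP-seq peaks lay close together. A peak was called distal when it lay over 1 kb from every protein-coding transcription start site (TSS). Distal peaks without an overlapping IgG peak were linked when the gap to the neighbour was 12500 bp or less, and runs of 4 or more linked peaks were kept as clusters. This selected 934 of 16147 SBNO1 peaks, which were 9.15% of the 10208 distal peaks without IgG, in 195 clusters. The clusters were therefore chosen by the measured SBNO1 positions, and their number, size and spacing are descriptions. The series has 3 libraries of HuCCT1 cells, for which the labels give no treatment or genetic change, 1 with an antibody against SBNO1, 1 with an antibody against TAF4 and 1 with control IgG. Each library is a pool of immunoprecipitates from several biological replicates, per the methods of the study, so there are no replicates to compare. No p-value was computed. The 95% intervals given below are exact Clopper-Pearson for shares and a normal approximation for differences between shares. They cover counting error only, in peaks or genes that are not independent of each other.

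SBNO1 belongs to a family of helicase-like proteins named after a fruit fly gene of the Notch pathway. TAF4, a TATA-binding protein associated factor, is a subunit of TFIID, the general transcription factor that binds core promoters and helps to place RNA polymerase II. Distal elements that lie close together and bind many factors are often called super-enhancers or stretch enhancers, and in epithelial cells such elements commonly hold sites of AP-1, the dimer of FOS and JUN proteins. The lists used here hold positions and a score only, so whether a cluster acts as an enhancer was not measured.

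The distal peaks that carry the results are shown here by their sequence. In each of the 6 largest clusters, named by its nearest protein-coding gene, the peak with most AP-1 matches was taken. Ties between clusters of equal size were settled by the longer span, and ties between peaks by the higher score and then the greater width. The consensus searched was TGACTCA on either strand, which also reads TGAGTCA. A member of the cluster near ZSWIM6 follows for contrast, as the widest of the clustered peaks at the highest score without a match. Each line gives 300 bp at the centre of the peak, 5′ to 3′ on the plus strand of GRCh38, and capitals mark AP-1 matches.
F2RL1 (chr5:76814169-76814468): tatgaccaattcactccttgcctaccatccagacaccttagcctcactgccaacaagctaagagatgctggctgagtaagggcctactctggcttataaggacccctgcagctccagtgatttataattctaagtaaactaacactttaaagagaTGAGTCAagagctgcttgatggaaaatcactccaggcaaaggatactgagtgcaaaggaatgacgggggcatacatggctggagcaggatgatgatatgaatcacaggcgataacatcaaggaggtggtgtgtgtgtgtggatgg
ELF3 (chr1:202063125-202063424): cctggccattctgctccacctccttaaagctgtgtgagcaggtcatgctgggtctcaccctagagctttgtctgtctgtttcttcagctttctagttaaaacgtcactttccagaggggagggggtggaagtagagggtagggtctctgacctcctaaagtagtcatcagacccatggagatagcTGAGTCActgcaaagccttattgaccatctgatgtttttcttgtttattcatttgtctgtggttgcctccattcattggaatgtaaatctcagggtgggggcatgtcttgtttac
SLC39A11 (chr17:72589073-72589372): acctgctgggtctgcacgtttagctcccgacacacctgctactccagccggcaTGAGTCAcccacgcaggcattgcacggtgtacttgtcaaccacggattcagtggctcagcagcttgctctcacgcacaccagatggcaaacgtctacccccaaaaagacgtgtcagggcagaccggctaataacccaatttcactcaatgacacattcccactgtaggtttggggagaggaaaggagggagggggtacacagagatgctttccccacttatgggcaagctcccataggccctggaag
COL4A2 (chr13:110412141-110412440): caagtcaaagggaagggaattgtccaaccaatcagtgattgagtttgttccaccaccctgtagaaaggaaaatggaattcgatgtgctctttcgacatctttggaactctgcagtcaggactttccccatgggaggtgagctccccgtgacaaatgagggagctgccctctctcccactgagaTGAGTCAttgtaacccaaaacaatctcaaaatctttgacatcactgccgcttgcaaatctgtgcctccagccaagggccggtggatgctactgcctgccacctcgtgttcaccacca
GPRC5A (chr12:12901443-12901742): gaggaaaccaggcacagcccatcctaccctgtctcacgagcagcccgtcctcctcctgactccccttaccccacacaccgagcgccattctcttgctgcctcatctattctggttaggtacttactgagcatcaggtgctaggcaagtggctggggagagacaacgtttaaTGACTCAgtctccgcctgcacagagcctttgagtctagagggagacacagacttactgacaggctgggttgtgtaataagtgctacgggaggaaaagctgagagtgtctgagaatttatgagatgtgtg
DNAJB12 (chr10:72292245-72292544): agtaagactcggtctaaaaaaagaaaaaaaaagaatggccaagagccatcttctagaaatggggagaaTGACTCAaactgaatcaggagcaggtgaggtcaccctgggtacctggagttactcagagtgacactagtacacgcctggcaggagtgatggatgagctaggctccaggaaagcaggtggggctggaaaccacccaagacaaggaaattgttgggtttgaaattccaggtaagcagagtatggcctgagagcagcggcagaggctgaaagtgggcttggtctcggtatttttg
ZSWIM6 (chr5:61304708-61305007): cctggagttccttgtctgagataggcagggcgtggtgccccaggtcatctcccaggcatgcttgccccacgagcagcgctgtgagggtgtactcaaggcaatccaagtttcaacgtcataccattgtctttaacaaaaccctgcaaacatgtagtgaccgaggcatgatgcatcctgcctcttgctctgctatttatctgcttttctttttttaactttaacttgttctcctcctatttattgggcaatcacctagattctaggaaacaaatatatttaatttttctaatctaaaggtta

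These stretches each held 1 match, apart from the ZSWIM6 one, and other peaks of some of these clusters held as many. The peaks of the F2RL1, ELF3, SLC39A11 and DNAJB12 clusters among them overlapped a TAF4 peak, and so did the ZSWIM6 peak. Those of COL4A2 and GPRC5A lay in introns of these genes and did not overlap one. All 7 windows had between 45% and 54% G and C in the central 200 bp.

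Most clusters were small. There were 104 clusters of 4 peaks, 54 of 5, 20 of 6, 12 of 7, 2 of 8, 2 of 9 and 1 of 10. A cluster spanned a median of 18656 bp, from 3952 bp near SEC14L1 to 44978 bp near ELF3, and peaks covered a median of 11% of it. The gap between neighbouring members had a median of 3770 bp over 739 gaps and was under 1 kb in 140 of them. All spans together came to 3.74 Mb, or 0.121% of the genome. The limits of the rule cut through a continuous distribution. There were 359 runs of 3 peaks just below the size required, with 1077 peaks, and 110 gaps between 12500 and 13500 bp just beyond the linking distance against 108 gaps between 11500 and 12500 bp that were linked.

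The same rule was applied to the other libraries for comparison. The 5567 distal TAF4 peaks without IgG gave 93 clusters with 446 peaks (8.01% of them), the largest of 12 peaks. The 1367 distal IgG peaks gave 44 clusters, but these held 584 peaks (42.7%), and the largest held 60. Of the SBNO1 clusters, 71 (36.4%) overlapped a TAF4 cluster, and 70 TAF4 clusters (75.3%) overlapped an SBNO1 cluster. A cluster of IgG peaks was overlapped by 2 SBNO1 clusters. SBNO1 peaks that overlapped IgG had been removed before linking, so a low number was largely fixed by the rule. The IgG list had no such filter, so cluster sizes are not compared like for like. With IgG overlap kept, SBNO1 gave 284 clusters with 1733 peaks.

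**Figure D1:**
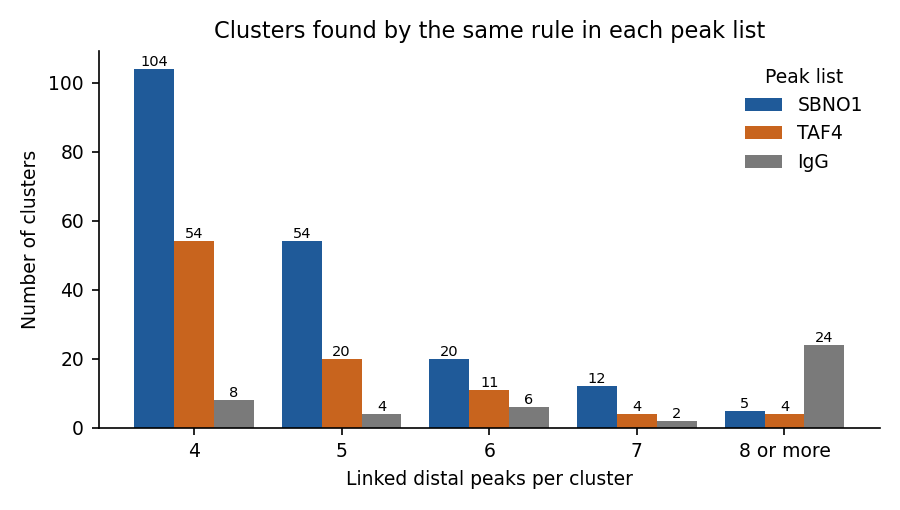
Number of clusters (vertical axis) by the number of linked distal peaks in them (horizontal axis) for the SBNO1, TAF4 and IgG lists, with the count above each bar. SBNO1 clusters were mostly of 4 peaks (104 of 195), while 24 of 44 IgG clusters held 8 peaks or more. Peaks overlapping IgG were removed from the SBNO1 and TAF4 lists before linking, so the sizes are not like for like.

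TAF4 was found at more of the clustered peaks than of the other distal SBNO1 peaks. Among all distal SBNO1 peaks without IgG, 44.4% overlapped a TAF4 peak by 1 bp or more. In the clusters this held for 599 of 934 peaks (64.1%, interval 61.0% to 67.2%), and in the remaining 9274 distal peaks for 3938 (42.5%, interval 41.5% to 43.5%). The difference was 21.7 percentage points (interval 18.4 to 24.9). The share was graded with the length of the run, although TAF4 was not used in the linking. It was 38.3% for isolated peaks, 47.7% in runs of 2, 53.9% in runs of 3, 62.5% in runs of 4, 62.2% in runs of 5, 68.3% in runs of 6 and 69.5% in runs of 7 or more. From 4 peaks upward the intervals of neighbouring steps overlapped. When each chromosome was left out in turn, the share of the clustered peaks lay between 62.6% (without chromosome 3) and 65.2% (without chromosome 5).

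**Figure D2:**
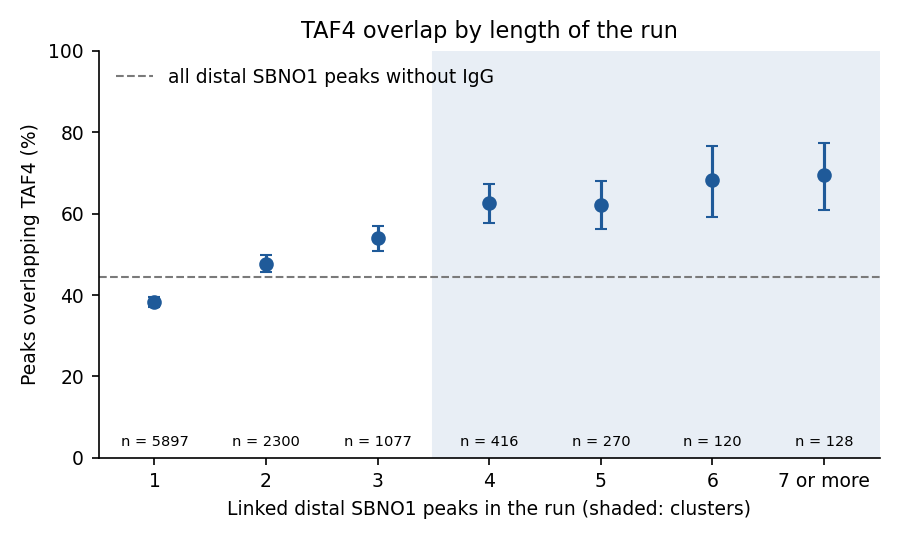
Share of distal SBNO1 peaks that overlap a TAF4 peak (vertical axis, %) by the number of linked peaks in the run (horizontal axis), with 95% Clopper-Pearson intervals, the number of peaks below each point, clusters shaded and the share of all 10208 distal peaks without IgG as a dashed line. Isolated peaks lie below the line at 38.3% and all runs of 4 or more lie above it, from 62.2% to 69.5%.

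Clustered peaks were also somewhat wider and higher in score, and TAF4 overlap was more frequent at wide and at high-scoring peaks. The score is the authors' whole number per peak, capped at 1000, whose scaling was not stated. Its median was 889 in clusters and 851 in the other distal peaks, and 36.0% and 31.5% of peaks were at the cap. The median width was 431 bp against 374 bp. The comparison was therefore repeated within classes of width, whose limits of 291, 380 and 496 bp are the quartiles of all distal peaks. In the narrowest class TAF4 overlapped 34.0% of clustered and 26.1% of other peaks, with overlapping intervals of 26.7% to 41.8% and 24.4% to 27.9%. In the classes above it the shares were 55.7% against 36.3%, 71.2% against 46.6% and 78.5% against 62.5%, each beyond counting error. For peaks at the score cap they were 74.1% and 52.4%, and below it 58.5% and 37.9%. Giving the other peaks the widths and scores of the members reduced the difference from 21.7 to 14.3 percentage points. Width was unequal also between clustered peaks with and without TAF4, at a median of 473 against 353 bp, and the score was 933 against 801.

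The difference was present at each distance from genes. From 1 to 10 kb from a TSS, TAF4 overlapped 62.3% of clustered and 46.6% of other peaks. Between 10 and 100 kb the shares were 66.2% and 43.3%, and over 100 kb they were 60.6% and 36.0%. In introns they were 58.7% and 41.9%, and between genes 67.5% and 42.9%. Clustered peaks were centred in introns less often than other distal peaks, with 36.3% (interval 33.2% to 39.5%) against 44.9% (interval 43.9% to 45.9%), and between genes more often, with 61.6% against 52.6%. Their median distance from a TSS was 26036 bp, compared with 30972 bp, and the median GC content of the central 200 bp was 49.0% and 47.0%. A start site of some other transcript, such as a non-coding RNA, lay within 1 kb of 14.7% of members and 12.7% of other distal peaks. TAF4 overlapped 73.7% of these members and 62.5% of the members without such a site.

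Where both proteins were called, their peaks were nearly concentric. The centres of a clustered SBNO1 peak and its TAF4 peak differed by a median of 51 bp, and by 100 bp or less in 76.0% of cases. For other distal peaks the median was 48 bp. The TAF4 peaks at members had a median score of 857, against 839 at other distal peaks.

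TAF4 overlap was mixed within most clusters. Every member overlapped TAF4 in 38 clusters, none did in 5, and 152 were mixed, with a median of 62.5% per cluster. Among the 739 pairs of neighbouring members, both overlapped TAF4 in 333, 1 of them in 291 and neither in 115. End members had TAF4 in 61.8% and inner members in 65.8% of cases. In the mixed clusters the widest member carried TAF4 in 114 of 152 (75%) and the narrowest in 44 (28.9%), compared with 57.3% of all their members.

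IgG peaks lay near clusters more often than near other distal SBNO1 peaks, although no member overlaps an IgG peak by the rule. An IgG peak was listed within 10 kb of 16.4% of members and 4.25% of other distal peaks, and within 100 kb of 40.6% and 17.2%. Inside the span of 31 clusters there were 44 IgG peaks. Among these were clusters named below near TOMM20, GRB10, MYEOV, ATF3, CCN1, ITGA3 and LIF. Among peaks with no IgG peak within 100 kb, TAF4 overlapped 341 of 555 members (61.4%) and 3084 of 7675 other peaks (40.2%), a difference of 21.3 percentage points. Chromosomes also differed. Distal peaks without IgG ranged from 0.908 per Mb on chromosome 18 to 7.28 per Mb on chromosome 17 among the autosomes, and clusters were found on 21 chromosomes but not on 18, X or Y. Chromosome 1 held 25 clusters, chromosome 5 held 19, chromosome 11 held 17 and chromosome 17 held 16. The TAF4 share of members was 85.5% on chromosome 3, 36.4% on chromosome 2 and 15 of 15 on chromosome 16. The part of these differences in the number of clusters was not tested.

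The largest cluster lay at F2RL1, which encodes the protease-activated receptor PAR2, on chr5:76785520-76822437. Its 10 peaks reached from 33057 bp upstream of the gene into an intron of F2RL1 and covered the TSS between them. From left to right their scores were 1000, 787, 871, 1000, 759, 1000, 1000, 854, 677 and 257. TAF4 overlapped 7 of them, with TAF4 scores between 736 and 1000, and was missing at the second, the third and the last. The last was the widest of the 10, at 784 bp. The eighth and the ninth shared 1 TAF4 peak, which also overlapped an IgG peak. The span also held 4 IgG peaks and an SBNO1 promoter peak. Further SBNO1 peaks in the span, each with a score of 1000, overlapped IgG peaks and were left out by the rule. F2R, which encodes the thrombin receptor PAR1, has its TSS 69321 bp away and carried no promoter peak of SBNO1 or TAF4. The calcium-binding protein gene S100Z is 27564 bp away and had none either.

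The cluster next to ELF3, a transcription factor of the ETS family found in epithelia, was the longest, on chr1:202018451-202063428. Its 9 peaks were all between genes, the nearest 7807 bp from ELF3. Their scores were 851, 762, 876, 1000, 1000, 943, 678, 860 and 1000, and TAF4 overlapped all but the fifth, which was the narrowest at 206 bp. No IgG peak was listed within 100 kb. RNPEP, GPR37L1 and TIMM17A were the next genes in reach, and ELF3 itself carried a promoter peak of SBNO1.

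The third cluster, on chr17:72580434-72622970, had no protein-coding TSS within 100 kb. The nearest TSS, of the zinc transporter gene SLC39A11, was 226736 bp away, and that of SOX9, a transcription factor of bile duct cells, was 459 kb away. The scores of its 9 peaks were 546, 557, 684, 1000, 1000, 641, 616, 1000 and 968, of which the second, the seventh and the ninth did not overlap TAF4.

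At COL4A2, which encodes a chain of the type IV collagen of basement membranes, all 8 peaks (chr13:110380386-110421964) lay in introns of that gene, with 5 at TAF4 and scores of 772, 791, 858, 504, 753, 998, 535 and 1000. COL4A1, which starts next to COL4A2 on the other strand, was the only other gene in reach. The 8 peaks at GPRC5A, an orphan receptor gene induced by retinoic acid (chr12:12870293-12904211), scored 819, 1000, 1000, 392, 691, 869, 1000 and 831. TAF4 overlapped the first 5 of these from the left and none of the last 3, which were 252, 235 and 344 bp wide, and 3 IgG peaks lay in the span. The nearest genes besides GPRC5A were GPRC5D, DDX47 and APOLD1.

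All 7 peaks between DDIT4, an inhibitor of the mTORC1 kinase, and DNAJB12, a co-chaperone of the endoplasmic reticulum, overlapped TAF4 (chr10:72292139-72335448). Their scores were 1000, 1000, 728, 1000, 830, 729 and 891, the last of these peaks was centred in an exon of DNAJB12, and 1 IgG peak lay in the span. The TSS of ASCC1 and that of ANAPC16 were also in reach.

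**Figure D3:**
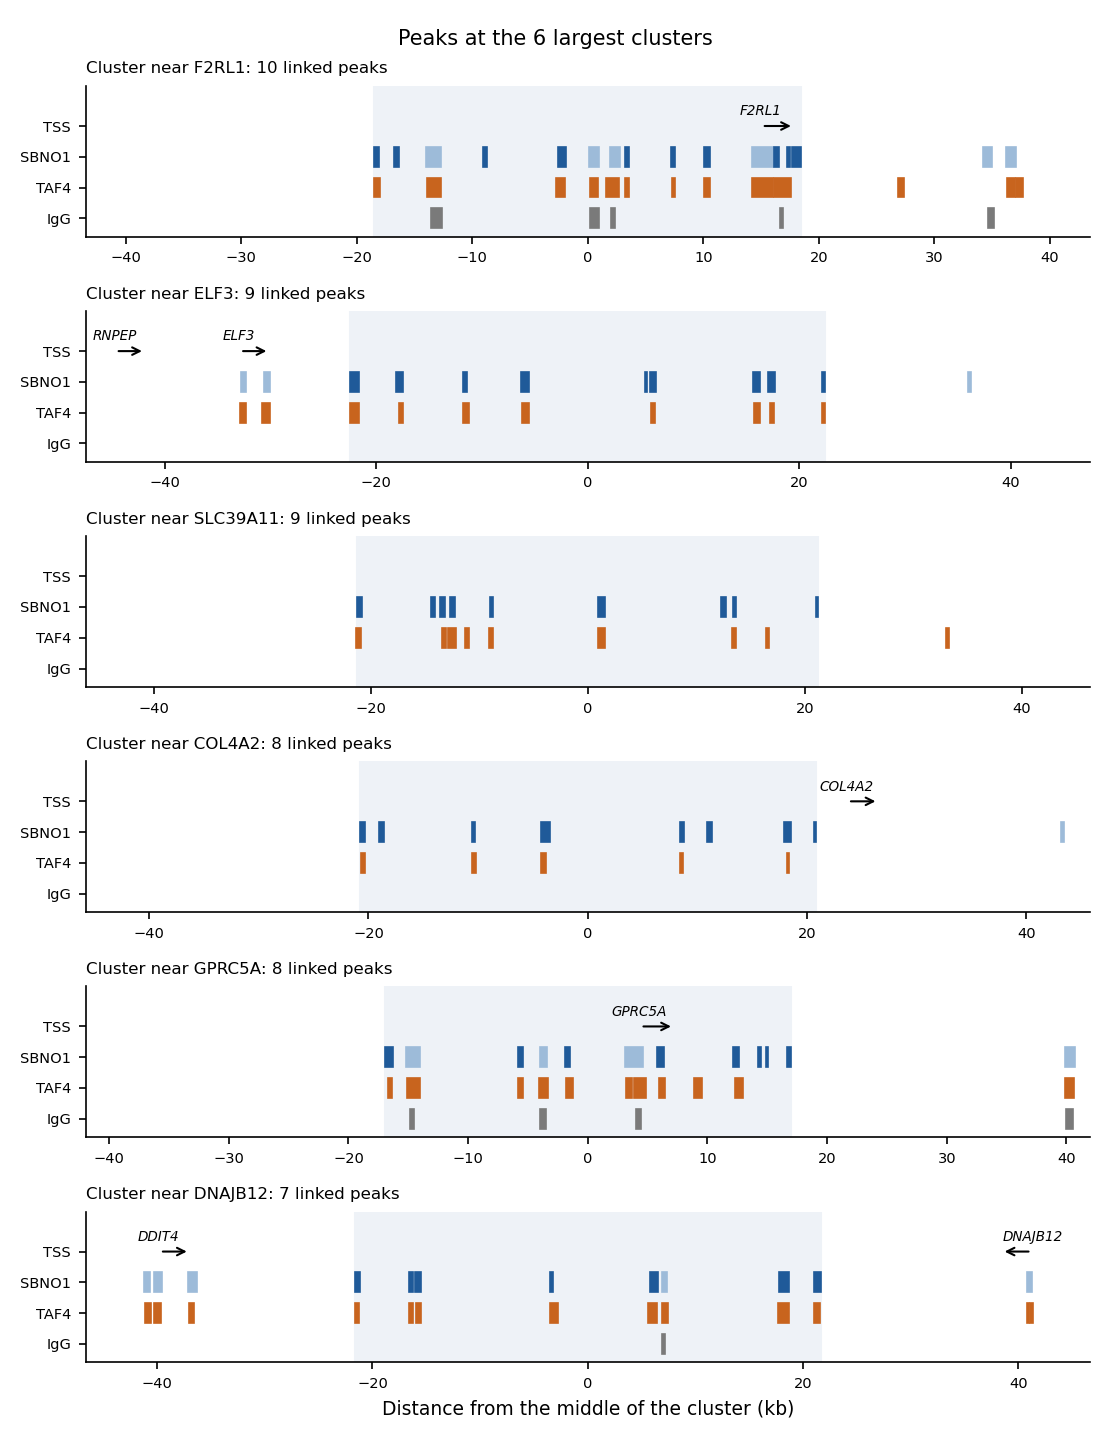
Peaks of the 3 libraries at the 6 largest clusters, by distance from the middle of the cluster (horizontal axis, kb), with the span shaded, linked SBNO1 peaks in dark blue, SBNO1 peaks left out by the rule or outside the run in pale blue, TAF4 in orange, IgG in grey, and arrows at protein-coding TSS pointing in the direction of transcription. TAF4 bars stand under 7 of 10 linked peaks at F2RL1, 8 of 9 at ELF3, 6 of 9 near SLC39A11, 5 of 8 at COL4A2 and GPRC5A and 7 of 7 near DNAJB12, and grey IgG bars stand inside the spans at F2RL1, GPRC5A and DNAJB12.

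There were 12 clusters of 7 peaks, of which the one near DNAJB12 had the longest span, and the next 6 by span follow. TAF4 overlapped 6 of 7 near BCAS1 (chr20:53893267-53931230), with the gene 64873 bp away. It overlapped 4 of 7 at MLPH (chr2:237465598-237502874), which encodes the melanosome transport protein melanophilin. COL6A3, PRLH and RAB17, the last encoding a small GTPase of epithelial cells, were in reach as well. There were 3 of 7 with TAF4 near GRB10, an adaptor of the insulin receptor (chr7:50812947-50851771), and 2 of 7 at TMEM45B (chr11:129828485-129862083), with NFRKB and PRDM10 in reach. Without a protein-coding TSS within 100 kb were the clusters nearest to TOMM20 (chr1:234957425-234998768), with 4 of 7 at TAF4, and to UACA (chr15:70475075-70508333), with 3 of 7.

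The clusters were then ordered by their TAF4 share. The largest in which each member overlapped TAF4 were those near DNAJB12, FAM83C (within introns of UQCC1), DCBLD2, MYEOV and NANOS3, of 7, 7, 7, 6 and 6 peaks, the last ones having the longest spans among several such clusters of 6. The 5 without any TAF4 lay near HS3ST1, IL1A, RIPOR3, NEK2 and NRP2. At HS3ST1, which encodes an enzyme of heparan sulfate synthesis, 6 peaks on chr4:11614423-11651453 lay 184859 bp or more from the TSS. Their scores of 1000, 951, 1000, 756, 865 and 813 overlapped the range of the TAF4-bound peaks above, but 5 of the 6 were narrow, with widths between 249 and 345 bp. The cluster between IL1A and IL1B, the genes of interleukin-1 alpha and beta (chr2:112794204-112824651), had scores of 795, 831, 768 and 630 and no IgG peak within 100 kb.

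Genes near the clusters were examined next. A protein-coding TSS within 100 kb of a cluster was found for 508 of 19689 genes (2.58%), with a median of 2 genes per cluster and a range of 0 to 15. The highest number was around FOSL1. For 36 clusters there was no such gene, 76 clusters came within 10 kb of a TSS and 37 spanned one. The members of 53 clusters all lay in 1 gene. There were 13 genes with 2 clusters in reach, among them APOLD1 and BHLHE40, the gene of a transcriptional repressor of the circadian clock. At BHLHE40 all 6 peaks of the nearer and all 4 of the farther cluster overlapped TAF4.

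Genes near clusters more often carried a promoter peak of the same proteins. These peaks are not members, but the SBNO1 ones come from the library that chose the clusters. Of all protein-coding genes, 25.7% had an SBNO1 peak and 31.9% a TAF4 peak within 1 kb of a TSS. Of the 508 genes in reach, 233 (45.9%, interval 41.5% to 50.3%) had an SBNO1 peak and 268 (52.8%, interval 48.3% to 57.2%) a TAF4 peak. The IgG list also had a higher share among genes in reach, with 4.92% (interval 3.21% to 7.18%) against 1.41%. Relative to its share of all genes, this rise was larger than that of SBNO1 or TAF4, and its cause was not tested. The SBNO1 share was 77.5% for the 40 genes whose TSS lay in a span, 57.7% up to 10 kb from it, 43.1% from 10 to 50 kb, 39.9% from 50 to 100 kb, 35.4% from 100 to 500 kb and 24.2% farther away. For TAF4 the shares were 85.0%, 65.4%, 50%, 46.5%, 40.8% and 30.5%, and for IgG 10%, 11.5%, 4.26%, 3.07%, 2.67% and 1.19%. Seen from the clusters, 121 had an SBNO1 promoter peak within 100 kb and 74 did not.

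**Figure D4:**
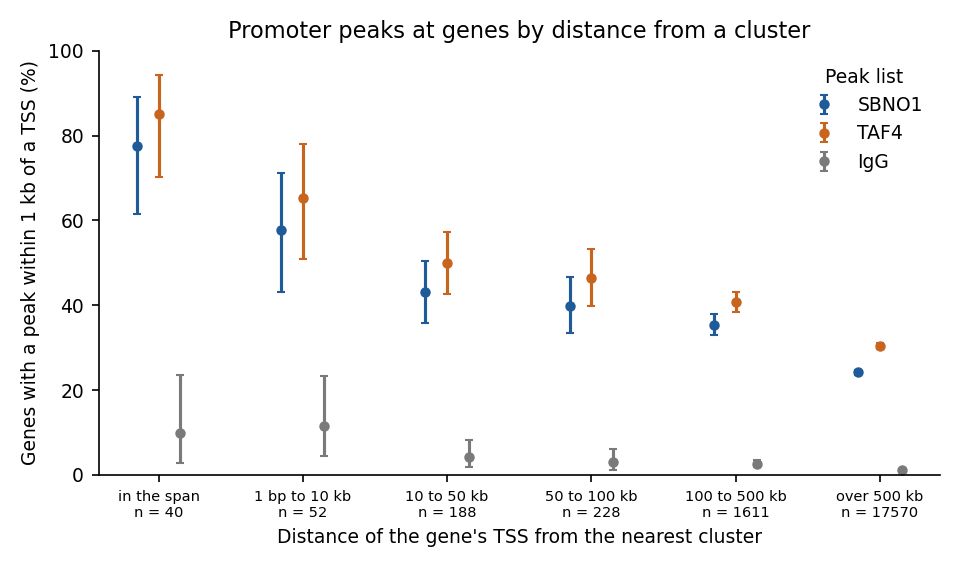
Share of protein-coding genes with a peak within 1 kb of a TSS (vertical axis, %) by the distance of the TSS from the nearest cluster (horizontal axis, with the number of genes), for SBNO1, TAF4 and IgG, with 95% Clopper-Pearson intervals. The SBNO1 share goes from 77.5% inside the spans to 24.2% beyond 500 kb, TAF4 lies above it at each distance, and IgG goes from 10% to 1.19%.

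The gene lists were read against the 2.58% of all genes in reach. They were chosen with earlier results of these data known, so their shares are descriptions only. Of 8 markers of bile duct epithelium, the tissue of origin, 3 were in reach (37.5%, interval 8.52% to 75.5%), KRT7 and KRT19 among them. No hepatocyte (6 genes), leukocyte (4) or fibroblast (3) marker was in reach, with upper limits of 45.9%, 60.2% and 70.8%. Of 3 endothelial markers 1 was in reach (33.3%, interval 0.84% to 90.6%), VWF, with a cluster in its introns. The intervals of all these cell types overlapped. At promoters, SBNO1 was listed at 3 and TAF4 at 6 of the 8 bile duct markers, and at 0 and 1 of the 6 hepatocyte markers. Among the fibroblast markers the COL1A1 promoter carried both. At KRT7, a keratin of bile ducts, 5 peaks on chr12:52203278-52230833 had scores of 1000, 1000, 611, 595 and 723, with TAF4 at the second and the third. KRT80 shared this cluster. The cluster next to KRT19 had 4 peaks, 3 with TAF4.

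Of 18 keratin, junction and S100 genes, 4 were in reach, and S100A10 had its TSS inside a cluster. Genes of cell adhesion to the matrix had 6 of 17 in reach. ITGA2, ITGB4 and ITGB6 had clusters of 5 peaks, with TAF4 at 2, 1 and 1 of them, and CD44, the hyaluronan receptor, had 4 with TAF4 at 3. The CD44 peaks scored 449, 773, 830 and 1000, and the lowest of these lay upstream of the gene and had no TAF4. LAMA5 and ITGA3, the remaining ones, each had 4 peaks with TAF4 at 2. Of 18 transcription factors of bile duct and endoderm, 2 were in reach (11.1%, interval 1.38% to 34.7%), among them ELF3, as described above.

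AP-1 genes themselves were among the neighbours, with 4 of 12. FOS had a cluster of 6 peaks around its TSS (chr14:75276762-75296344) with scores of 735, 701, 797, 1000, 710 and 625 and TAF4 at the first and the fourth. All 4 peaks near FOSL1 and all 4 near MAFF overlapped TAF4, while ATF3 was 76465 bp from a cluster of 5 with TAF4 at 4. Of 17 genes of the YAP/TEAD pathway, CCN1, AMOTL1 and AMOTL2 were in reach. No gene of the EGF receptor family and its ligands (12 genes) or of the Notch pathway (20 genes) had a TSS within 100 kb of a cluster. The upper limits of 26.5% and 16.8% lie above the 2.58% of all genes, so these lists do not show fewer clusters than other genes. Beyond the limit, HES1 of the Notch list had the nearest TSS to a cluster of 4 peaks, 3 with TAF4, at 153457 bp.

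Cytokine and NF-kB genes had 5 of 24 in reach. LIF, the leukemia inhibitory factor gene, had 5 peaks 33523 bp or more downstream on chr22:30195880-30213216, with 1 IgG peak in the span. Their scores were 929, 1000, 965, 1000 and 863. TAF4 overlapped all of these except the third, which was the narrowest at 228 bp. The others were IL1A and IL1B, described above, TNFAIP2 with TAF4 at 1 of 4 peaks and BCL3 with 2 of 4. Of 16 protease and inhibitor genes only PLAU, the urokinase gene, was in reach, and the 5 peaks upstream of it (chr10:73887742-73907313) scored 809, 711, 1000, 1000 and 840 and all overlapped TAF4. SMAD3 was 1 of 15 TGF-beta genes in reach and CDKN1B 1 of 18 genes of MYC, p53 and the G1 phase, each with TAF4 at 2 of 4 peaks. These counts use the TSS only. CDK6, on the latter list, had no TSS in reach but held a cluster of 5 peaks in its introns, 3 with TAF4. The nearest cluster to MYC was 114 kb away. The cytosolic ribosome, a housekeeping group, had 2 of 88 genes in reach (2.27%), RPS25 and RPS21, although 87.5% of its promoters carried SBNO1. All lists but that of the ribosome hold 24 genes or fewer, so their shares have wide counting intervals.

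Some clusters lay over non-coding RNA genes, named here after their positions were seen. MALAT1 had its TSS in a cluster of 6 peaks (chr11:65491630-65511076) that also held 2 IgG peaks, and MIR21 lay in a cluster of 6 with TAF4 at each (chr17:59837232-59856036).

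The AP-1 consensus was the most frequent of 12 motifs searched, but clusters did not hold it more often than other distal peaks. It was present in 38.7% of the 200 bp windows at the centre of all distal SBNO1 peaks without IgG. In members the share was 36.7% (interval 33.6% to 39.9%) and in other distal peaks 38.9% (interval 37.9% to 39.9%), a difference of -2.18 percentage points (interval -5.43 to 1.07). Windows 1 kb to either side of the members held it in 4.66%. Among members 297 had 1 match, 43 had 2 and 3 had 3 or more, at a median of 41.5 bp from the peak centre. By cluster, 107 of 195 (54.9%) had 2 or more members with a match and 23 had none. The FOS cluster was among the latter. TAF4 overlapped 66.2% of members with a match and 62.9% of those without, whereas among other distal peaks the shares were 40% and 44%.

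The remaining motifs were less frequent. TEAD (GGAATG) was found in 21.6% of members and 22.5% of other distal peaks, with 11.1% beside the members. RUNX (TGTGGTT) was lower in members, at 8.57% (interval 6.85% to 10.5%) against 11.5% (interval 10.9% to 12.2%), with 3.32% beside them. ETS (CCGGAA) had 6.21% against 4.42%, and ZNF148/ZNF281 (GGGGAGGG) 5.14% against 3.55%, with lower limits of 4.75% and 3.81% in members and upper limits of 4.86% and 3.94% in the others, so that the intervals touched. KLF/SP (GGGCGG) was at 8.78% and 8.63%, FOXA (TGTTTAC) at 5.46% and 5.98% and NF-kB (GGANTTTCC) at 2.78% and 2.21%. CTCF (CNAGGNGGC) had 3.75% in members and 4.66% beside them, and NFY (CCAAT) 22.1% and 23.2%, so neither was more frequent at the peaks than around them. HNF1 (GTTAATNAT) was found in 2 and CRE (TGACGTCA) in 4 of the 934 windows. Matches were exact and on either strand, and matches of ETS and TEAD, or of KLF/SP and ZNF148/ZNF281, can share bases. A match is a description of the sequence and does not show that the factor binds.

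**Figure D5:**
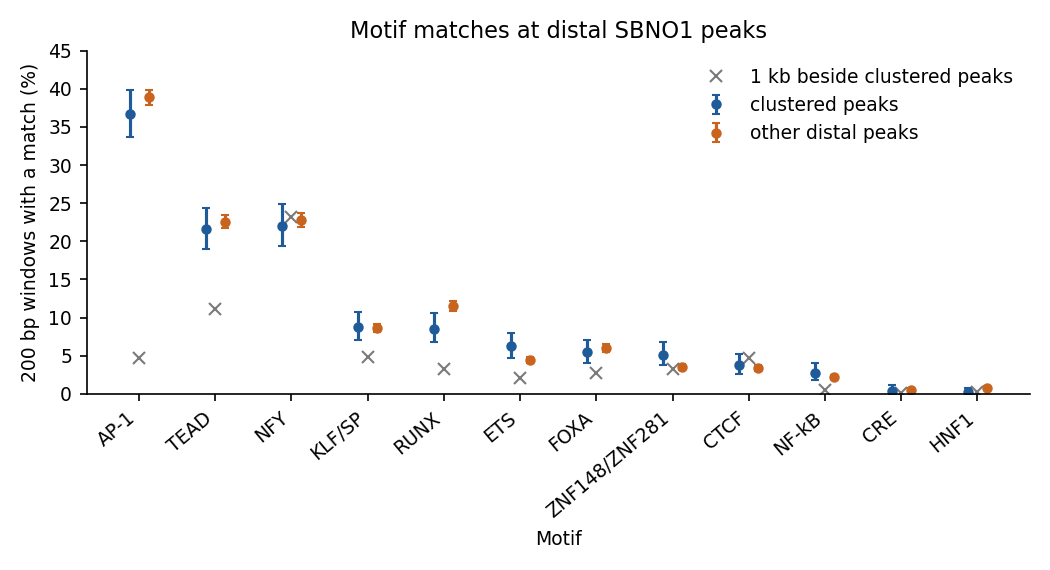
Share of 200 bp windows with an exact match (vertical axis, %) for 12 motifs (horizontal axis), in clustered peaks and other distal SBNO1 peaks with 95% Clopper-Pearson intervals, and in windows 1 kb beside the clustered peaks as crosses. AP-1 stands at 36.7% and 38.9% against 4.66% beside the peaks, and among the 12 motifs the intervals of members and others are apart for RUNX.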

How the data were processed

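ChIP-seq peak lists of 3 libraries of HuCCT1 cells were used, 1 library per antibody, pooled from several biological replicates per the methods of the study. The deposited score of each peak is the authors' whole number, capped at 1000. The submitters' processing notes name Bowtie2 2.5.4, Genrich 0.6.1 and GRCh38.p14, while the methods of the study name normR as peak caller, and which of them made the lists is not given in the sources used here. Of the 16147 SBNO1 peaks used, 11356 lay over 1 kb from every protein-coding TSS. The study instead describes most SBNO1 peaks and nearly all TAF4 peaks as lying within 1 kb of a TSS. Here 5567 of 12763 TAF4 peaks were distal and without IgG. Genes with a promoter peak, 5057 for SBNO1 and 6280 for TAF4, also outnumber those the study counts. The reasons for these differences, and whether these lists are the study's peak calls, were not tested. The lists hold no reads, so the depth is unknown and limits on weak peaks cannot be given.

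Distances were measured from the nearest edge of a peak to 78567 TSS of protein-coding transcripts of 19689 genes in GENCODE 44, and were 0 inside. Overlap required 1 bp. Clusters and their nearest genes followed the rule given in the report. Motifs were exact matches in 200 bp at the peak centre and in windows shifted by 1000 bp to either side. Sequences came from the reference genome. The members and gene lists were chosen with earlier results of these data known. Genes named were at most 4 of the nearest to each of the 12 largest clusters, at most 4 per list by cluster size, the 5 largest clusters with most and with least TAF4, and 2 of the genes with most clusters. Ties in size went to the longer span. The remaining adhesion and cytokine genes in reach, the non-coding RNAs and the clusters of the closing section were named after their values were seen. Some list members are not reported here. With 1 library per antibody no test was made. Alternatives changed the gap, cluster size, TSS set, IgG filter, score filters, overlap, reach and motif window. The linking, overlap, distance and motif steps were tested on simulated data. Python 3.11.15, pandas 2.3.3, numpy 2.4.6 and scipy 1.17.1 were used.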

Additional observations from a re-analysis of the deposited data

How the results depend on the processing

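No paired analysis was possible because the 3 libraries are single samples of different antibodies. Shares were called moved outside their own 95% interval, and counts when over 1.5 times larger or smaller. The 69 values computed under alternatives comprised 31 without such a move and 38 that moved. The AP-1 difference, whose interval includes 0, turned from negative to positive in 2 of them, and the TAF4 share of clustered peaks exceeded that of other distal peaks in 16 of 16. Merging peaks under 1 kb apart, removing peaks with IgG within 100 kb, and giving other peaks the members' widths, scores or chromosomes were chosen after seeing the data. The share of repeat bases was not analysed here.

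A gap of 5 kb gave 53 clusters with 236 peaks, a TAF4 share of 72.9% and a difference of 29.1 percentage points, and one of 25 kb gave 391 clusters with 2010 peaks, 58.8% and 17.8. With 3 or more peaks there were 554 clusters with 2011 peaks, 58.7% and 17.7, and with 5 or more 91 clusters with 518 peaks. Keeping IgG overlap gave 1733 peaks, 74.1% and 29.0. At or above the median score 31 clusters with 132 peaks and 72.0% remained, and at the cap 8 clusters with 33 peaks. Promoter peaks kept in the linking gave 314 clusters with 1545 peaks. A reciprocal overlap of 50% gave a TAF4 share of 56.9%, and TAF4 peaks at or above their median score 26.1% with a difference of 10.05. The difference was 14.3 with the members' widths and scores and 17.2 with their widths in finer classes. Within 50 kb there were 280 genes, 50.7% with an SBNO1 promoter peak, within 200 kb 937 genes, and counting only nearest genes 188, with 56.9%. The AP-1 share was 52.5% in whole peaks and 21.4% in 100 bp. Its difference was 0.845 percentage points in whole peaks, 1.25 for peaks with TAF4 and -5.95 for those without.

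Scores at the cap cannot order the strongest peaks, and clusters depend on how finely neighbouring signal was divided into peaks. Without replicates, the spread between experiments is unknown. Merging peaks under 1 kb apart left 139 clusters with 637 peaks and a TAF4 share of 64.7%.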

Other observations

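A cluster of 6 peaks on chromosome 16 (29261641 to 29272372, nearest gene NPIPB11 at 125324 bp), named here after its values were seen, had an AP-1 match in 5 members and TAF4 at all 6. Whether its sequence has near-identical copies elsewhere in the genome was not tested.

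The DUSP1 cluster of 6 peaks on chromosome 5 (172758153 to 172783040), at a gene of a phosphatase that acts on MAP kinases and like the others below also named after its values were seen, had TAF4 at 4 members and 2 IgG peaks in its span. At SOCS3, a feedback inhibitor of JAK and STAT signalling, 7 peaks on chromosome 17 (78329337 to 78353270) had TAF4 at 3 and no IgG peak within 100 kb. The 6 peaks in introns of IL6R, which encodes an interleukin-6 receptor, on chromosome 1 (154418143 to 154442211) had TAF4 at 4, an AP-1 match in 4 and no IgG peak within 100 kb.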
